A study of Mus musculus with 6 samples.

Results

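Complement is a cascade of plasma and cell-made proteins that marks targets for uptake and recruits leucocytes. In its alternative pathway, C3b binds factor B, factor D cuts the bound factor B, and properdin steadies the resulting C3 convertase, which cleaves more C3. The released fragments C3a and C5a act on G-protein-coupled receptors of myeloid cells, while membrane regulators such as CD55 and, in rodents, Crry break up convertases on host cells. Myeloid cells are a known source of properdin, C3 and factor B and a main carrier of the anaphylatoxin receptors.

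The set described here has 9 genes: the factors Cfb, C3, Cfp and Cfd, the receptors C3ar1, C5ar1 and C5ar2, and the regulators Cd55 and Cr1l. They were matched by symbol among the 30037 genes of the deposited table, and all 9 were found. Of these, 8 passed the filter on low values (3 or more libraries at 1 or above), as did 15454 genes in all. The set was proposed with the knockout against wild-type contrast of these libraries known, so the values of its members in that contrast are a description and carry no test.

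RNA was profiled in L-GMP cells, a leukaemia fraction named after the granulocyte-macrophage progenitor, from marrow of mice that carried acute myeloid leukaemia and were 8 to 10 weeks old. There were 3 libraries from Prmt6-/- leukaemia and 3 from wild-type (WT) leukaemia. Prmt6 is the gene of an arginine methyltransferase, and the libraries set leukaemia without it against leukaemia that has it. All 6 libraries carry the leukaemia, and the sources used here do not name its driver. The labels do not tell whether replicates are different mice, so p-values below reflect the spread of these samples alone, which could be technical.

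Deposited values are on a log2 scale, normalized between samples by the authors, and read depth is unknown. Differences subtract the wild-type mean from the knockout mean on that scale, SD is over the 3 libraries of a group, and SE is that of the limma fit over all genes. The scale pulls genes of low level together, as seen over genes with an adjusted p under 0.05 in the authors' deposited table. The difference divided by the authors' log2 fold change had a median of 0.102 over 346 such genes at means from 1 to 5. That median was 0.881 over 1751 such genes whose mean reached 10. The targeted gene checked the labels, with Prmt6 at 5.42, 5.46 and 5.48 in knockout libraries and 7.82, 7.60 and 7.41 in wild-type libraries. Its difference on this scale was -2.16, whereas its log2 fold change in the authors' deposited table is -7.66. Of all genes tested 33.0% passed the limma threshold (Benjamini-Hochberg adjusted p under 0.05), 15.0% as higher and 18.0% as lower in the knockout, and the groups did not overlap for 47.4%. Markers of the sorted fraction were present in both genotypes, among them Kit with a mean of 9.85 in knockout and 10.14 in wild-type libraries, and Cd34 with 10.47 and 10.44 in the same order. Of the 9 markers of this fraction 4 passed (44.4%): Elane and Ctsg, described below, rose, and Fcgr2b, an Fc receptor, and Cd47, an inhibitor of phagocytosis, fell by 0.88 and 0.31 (limma adjusted p = 0.000507 and 0.00737). Mpo, the gene of myeloperoxidase, varied most within groups among these 9, at 13.34, 14.37 and 15.72 in knockout libraries and 15.27, 15.19 and 16.29 in wild-type libraries, and did not pass.

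Promoters of 8 of the 9 genes are in the RefSeq table for GRCm38.p6, and Cfb has no entry. The 250 bases before the start, 5′ to 3′ on the gene's strand, are shown for Cfp, C5ar1 and Cr1l, the members with an entry whose libraries did not overlap between genotypes, and for C3, on which every pathway converges. They lie at chrX:20931556-20931805, chr7:16259339-16259588, chr1:195131571-195131820 and chr17:57228137-57228386, all on the minus strand. Starts here are those of RefSeq, whereas the gene spans given below are from GENCODE. For C5ar1 most of the window lies inside the GENCODE span, which ends at 16259540. Most of the bases just before the GENCODE start of C5ar1 were thus not searched. For Cr1l a few bases lie inside the span, which ends at 195131586. Capitals mark matches to the motifs named below.
Cfp: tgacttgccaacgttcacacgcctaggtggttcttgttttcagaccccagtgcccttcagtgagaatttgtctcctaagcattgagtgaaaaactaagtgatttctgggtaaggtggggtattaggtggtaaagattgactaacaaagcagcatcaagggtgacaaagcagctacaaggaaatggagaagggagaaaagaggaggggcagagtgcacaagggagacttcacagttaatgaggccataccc
C5ar1: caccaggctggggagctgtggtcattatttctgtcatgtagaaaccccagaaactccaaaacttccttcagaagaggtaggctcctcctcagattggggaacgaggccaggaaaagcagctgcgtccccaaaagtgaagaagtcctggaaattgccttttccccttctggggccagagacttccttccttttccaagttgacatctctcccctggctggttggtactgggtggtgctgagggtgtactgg
Cr1l: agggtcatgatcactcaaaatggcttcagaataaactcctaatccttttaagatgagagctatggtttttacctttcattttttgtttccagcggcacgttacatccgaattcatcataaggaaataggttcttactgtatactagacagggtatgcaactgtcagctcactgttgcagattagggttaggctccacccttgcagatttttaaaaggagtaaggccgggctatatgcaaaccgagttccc
C3: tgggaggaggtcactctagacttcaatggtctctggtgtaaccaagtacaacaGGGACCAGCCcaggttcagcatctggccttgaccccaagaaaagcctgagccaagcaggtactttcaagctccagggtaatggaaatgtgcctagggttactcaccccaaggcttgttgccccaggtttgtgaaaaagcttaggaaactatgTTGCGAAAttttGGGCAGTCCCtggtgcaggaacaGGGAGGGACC
The letters searched on both strands were GGGA, 4 bases of any kind and CC for NF-kB, GAAA, 2 bases of any kind and GAAA for the interferon-stimulated response element, TTCNNNGAA for STAT factors, TTGCNNAA for C/EBP, TGANTCA for AP-1 and GAGGAAG for PU.1. Over 250 bases before to 50 after the start, these were found in 20.7%, 3.44%, 8.30%, 10.8%, 7.81% and 13.6% of all 32851 promoters in that order. C3 held 3 NF-kB matches and 1 C/EBP match, the C/EBP match at positions -45 to -38 counted back from the start at -1. The promoters of Cfp, C5ar1 and Cr1l held no match to any of these letters, which says only that the letters are not in this window. Elsewhere in the set C3ar1 held the AP-1 letters, which read the same on both strands, at positions -22 to -16, Cd55 an NF-kB match at -61 to -52, and C5ar2 matches for NF-kB, C/EBP and PU.1 over its 2 annotated starts. The matches are short letter runs and not shown to be sites.

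Among the factors, Cfb and Cfp were far lower in the knockout, whereas C3 lay close in both genotypes and Cfd was listed at 0. Cfb encodes factor B, the serine protease zymogen of the alternative-pathway convertase (chromosome 17, 34856374 to 34862518, GRCm38). Its deposited values were 7.92, 8.70 and 8.55 in knockout libraries and 11.20, 11.21 and 11.25 in wild-type libraries. Every knockout library lay below every wild-type library, and the wild-type values were tightly grouped while knockout library 1 stood lowest. The means were 8.39 ± 0.41 in the knockout and 11.22 ± 0.03 in the wild type (SD, n = 3 each), a difference of -2.83 (SE 0.168), which corresponds to 14.1% of the wild-type level on this scale. On the deposited scale only 6 of the 15454 tested genes had a more negative difference, since Cfb ranked at place 7. This rank is limited by the compression of low genes. Prmt6 and Gm20547, a gene model described below, differed by -2.16 and -0.19 on that scale. Their log2 fold changes in the authors' deposited table, -7.66 and -6.70, are beyond that of Cfb. The authors' deposited table gives Cfb a log2 fold change of -3.33.

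Cfp encodes properdin, the stabilizer of the convertase and the member with the highest level (chromosome X, 20925454 to 20931555). It stood at 10.82, 10.82 and 11.00 in knockout libraries, against 12.04, 12.08 and 12.01 in wild-type libraries. The groups were apart, with means of 10.88 ± 0.11 in the knockout and 12.04 ± 0.04 in the wild type (SD, n = 3 each). The difference was -1.16 (SE 0.0625), 44.7% of the wild-type level, and the log2 fold change in the authors' deposited table is -1.30. In bulk samples fewer cells of a type and less RNA per cell cannot be told apart, here and for every gene below.

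C3, the central component that all pathways cleave (chromosome 17, 57203970 to 57228136), read 9.61, 9.86 and 9.74 in knockout libraries and 9.80, 9.79 and 10.29 in wild-type libraries. The groups overlapped, and wild-type library 3 stood above the other five. The mean was 9.74 ± 0.12 in the knockout and 9.96 ± 0.29 in the wild type (SD, n = 3 each), a difference of -0.22 (SE 0.131, 95% interval -0.52 to 0.08), and -0.0541 without wild-type library 3. The same wild-type library was also the highest for C4b, the C3 relative described below.

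Cfd, which encodes factor D or adipsin, the protease that cuts factor B (chromosome 10, 79890853 to 79892655), was listed at 0 in all 6 libraries and could not be compared. The same holds for 7932 genes, and 0 lies above the lowest value of the scale, -1.97. The sources used here do not tell whether the authors' transcript index held Cfd, so its 0 is not read as absence of the mRNA. It lies 2.64 kb from Elane and 7.68 kb from Prtn3, granule protease genes of the same cluster, whose means were 18.01 and 14.12 in the knockout and 16.56 and 13.91 in the wild type.

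**Figure D1:**
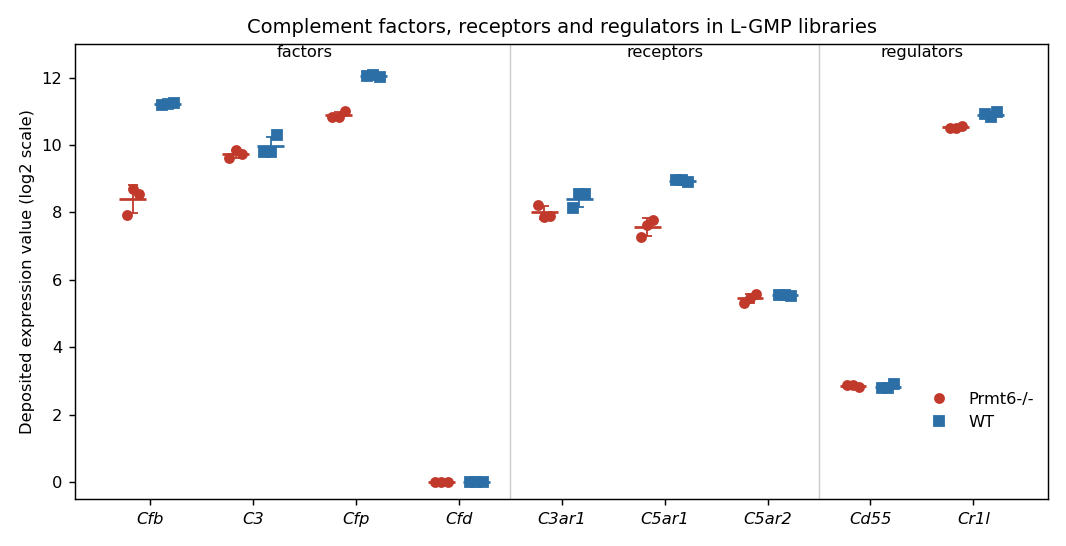
Deposited expression values (log2 scale, vertical axis) of the 9 genes in each library, with Prmt6-/- as red circles left of WT as blue squares; horizontal lines are means and bars are SD over 3 libraries. Cfb, Cfp, C5ar1 and Cr1l are apart between genotypes, C3, C3ar1, C5ar2 and Cd55 overlap, and Cfd is listed at 0.

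The anaphylatoxin receptors differed from one another: C5ar1 was lower in the knockout, C3ar1 less so and with overlapping groups, and C5ar2 lay close in both genotypes. C5ar1 encodes the G-protein-coupled receptor of C5a that drives neutrophil and monocyte chemotaxis (chromosome 7, 16246743 to 16259540). Its values were 7.28, 7.64 and 7.79 in knockout libraries and 8.96, 8.95 and 8.91 in wild-type libraries. As with Cfb, the wild-type libraries were nearly equal, the knockout libraries spread more widely below them, and knockout library 1 was the lowest. The means were 7.57 ± 0.26 in the knockout and 8.94 ± 0.03 in the wild type (SD, n = 3 each), a difference of -1.37 (SE 0.116), or 38.7% of the wild-type level. The authors' deposited table has -2.00 as the log2 fold change of C5ar1.

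C5ar2, the second C5a receptor, which does not couple to G proteins, lies next to C5ar1 (chromosome 7, 16234585 to 16244154). Its values were 5.32, 5.45 and 5.58 in knockout libraries and 5.55, 5.56 and 5.51 in wild-type libraries. The wild-type values fell inside the knockout range, with a difference of -0.09 (SE 0.0723, 95% interval -0.25 to 0.07). That difference was -0.0247 without knockout library 1 and -0.156 without knockout library 3. At this level the deposited scale understates changes, and the log2 fold change in the authors' deposited table, -0.35, has an adjusted p of 0.564.

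C3ar1, the receptor of C3a (chromosome 6, 122847138 to 122856161), read 8.23, 7.87 and 7.91 in knockout libraries and 8.12, 8.54 and 8.55 in wild-type libraries. Knockout library 1 lay above wild-type library 1, so the groups overlapped. The means were 8.00 ± 0.20 in the knockout and 8.40 ± 0.24 in the wild type (SD, n = 3 each), a difference of -0.40 (SE 0.133). The authors' deposited log2 fold change for C3ar1 is -0.62.

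The membrane regulators were lower or close to equal. Cr1l encodes Crry, the rodent regulator that limits C3 convertases on the cell surface (chromosome 1, 195097382 to 195131586). It stood at 10.52, 10.52 and 10.56 in knockout libraries and 10.91, 10.84 and 10.97 in wild-type libraries. The groups were apart although the step was small, with a difference of -0.38 (SE 0.0542), or 77.0% of the wild-type level, and -0.301 after quantile normalization. Cd55, the decay-accelerating factor (chromosome 1, 130439027 to 130462744), lay near the bottom of the scale with 2.88, 2.88 and 2.83 in knockout libraries and 2.79, 2.80 and 2.90 in wild-type libraries. The groups overlapped and the difference was 0.04 (SE 0.0341), or 0.0718 without wild-type library 3 and 0.0187 without wild-type library 1. Cd55 is at 0.72 (log2 fold change, adjusted p 0.646) in the authors' deposited table.

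Of the 8 members tested, 5 passed the limma threshold (Cfb, Cfp, C5ar1, C3ar1 and Cr1l), all as lower, against 18.0% of all genes tested as lower, and the groups did not overlap for 4 (Cfb, Cfp, C5ar1 and Cr1l), against 24.4% of all genes lower without overlap. No member passed as higher by limma (0 at an unadjusted p under 0.05, and 0 in the authors' deposited table). The authors' deposited table calls 5 members, all lower, against 31.0% of all genes in either direction and 17.5% as lower. Because the set was chosen with this contrast known, nothing is read from these counts. Of the 5, C3ar1 kept its place in 4 of 12 alternative settings and the other four in all 12. The plot of differences against level shows the same members among all genes.

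**Figure D2:**
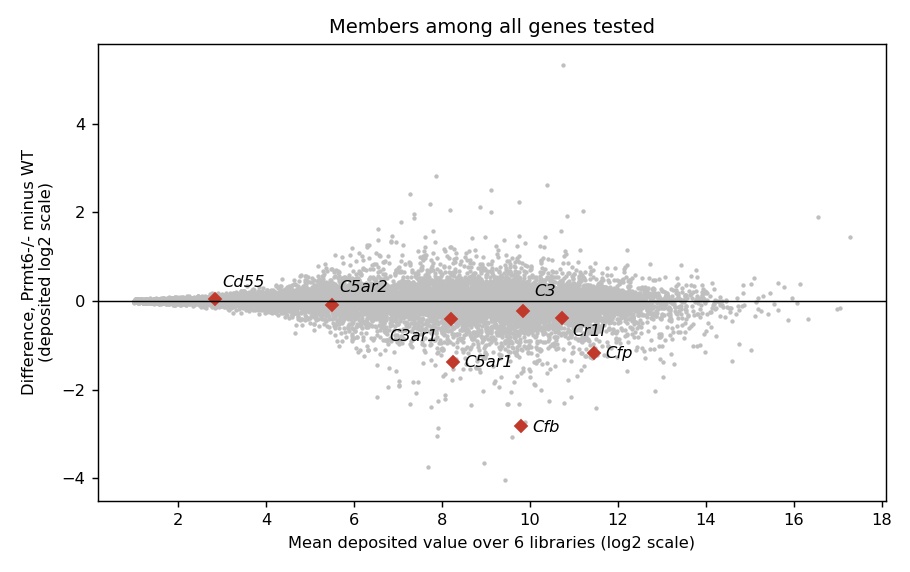
Difference, Prmt6-/- minus WT (vertical axis, deposited log2 scale), against the mean deposited value over 6 libraries (horizontal axis, log2 scale) for the 15454 genes tested in grey, with the 8 tested members as red diamonds. Cfb lies at -2.83 near the lower edge of all genes, C5ar1 and Cfp below -1, and Cd55 at the left where differences are compressed.

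Levels per length were set side by side after subtracting the log2 length, in kilobases, of each gene's longest principal transcript. On this length-adjusted log2 scale the wild-type order of levels was Cfp at 11.33, Cr1l at 10.19, Cfb at 9.76, C3 at 7.60, C5ar1 at 7.59, C3ar1 at 6.30, C5ar2 at 3.76 and Cd55 at 1.49. C3 and C5ar1 did not differ beyond the spread of C3 over libraries (SD 0.29). Properdin mRNA stood above 96.1% of the 13954 tested genes with a length, and factor B mRNA above 86.6% of them. In the knockout the length-adjusted level of Cfb was 6.94, below C3 at 7.38, and above 56.9% of genes. Cr1l depends on the length chosen, since with all annotated exons joined its wild-type level was 7.54.

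The rest of the complement system did not move as a block. Of 49 other complement genes on a fixed list, 48 were in the table, 3 of these were listed at 0 in all libraries and 30 were tested. By limma 4 rose and 3 fell, so 23.3% passed against 33.0% of all genes tested, and the median difference was 0.00 against 0.01 over all genes. Of the 30 tested, 11 had groups that did not overlap, against 47.4% of all genes tested.

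Of these genes the lectin-pathway gene Fcnb rose most on the deposited scale, on which low genes such as Clu, below, are compressed. It encodes ficolin-B, a recognition lectin made by myeloid cells (chromosome 2, 28076378 to 28084885), and read 10.87, 10.86 and 10.88 in knockout libraries and 8.69, 8.67 and 8.56 in wild-type libraries. The groups were far apart, and Fcnb differed by 2.23 (SE 0.0583, limma adjusted p = 5.20e-07). The other four lectin-pathway genes tested, Masp1, Masp2, Fcna and Colec10, did not pass.

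Of the classical components, C4b, which encodes C4 (chromosome 17, 34728380 to 34743882), fell. It read 6.33, 6.26 and 6.20 in knockout libraries and 6.71, 6.71 and 7.33 in wild-type libraries (difference -0.65, SE 0.153, limma adjusted p = 0.0103). Wild-type library 3 stood above the others, and the difference without it was -0.445. C4a, its near-identical relative, has no row in the table, so reads of both could enter the C4b value. C1qa, C1qb and C1qc, the chains of C1q, stood at means between 1.09 and 2.83 in both genotypes and did not pass, nor did C1ra and C2.

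Of 7 terminal components 3 were tested. C8g, which encodes the lipocalin-like chain of C8, averaged 6.74 in the knockout and 6.57 in the wild type, whereas C6 (1.57 and 1.55 in that order) and C8a (2.16 and 2.14) stood near the bottom of the scale. By limma 0 of them passed, 0 at an unadjusted p under 0.05 and 0 in the authors' deposited table. Hc, the gene of C5 from which C5a is cut, stood at 0.72 in the knockout and 0.70 in the wild type and did not pass the filter.

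Among the other regulators, Clu, the gene of clusterin, an extracellular chaperone that binds terminal complexes, rose (3.81, 3.89 and 3.87 in knockout libraries and 3.59, 3.63 and 3.62 in wild-type libraries, difference 0.25, SE 0.0355, limma adjusted p = 0.000863). At this low level the deposited scale hides most of the change, and the authors' deposited table lists Clu at a log2 fold change of 3.97. Cd46, a cofactor for the cleavage of C3b whose expression in mice is largely limited to the testis (chromosome 1, 195036826 to 195092249, beside Cr1l), rose by 0.16 (SE 0.0455, limma adjusted p = 0.0253). It read 4.23, 4.12 and 4.13 in the knockout, against 4.05, 3.96 and 3.99 in the wild type. The same compression applies to Cd46, whose log2 fold change in the authors' deposited table is 1.57. The Cd46 call ended without knockout library 1 (adjusted p = 0.0807 in limma), wild-type library 2 (0.0876) or wild-type library 3 (0.0641), and with intensity-dependent centring (0.0535). Cd59a, which blocks assembly of the membrane attack complex, fell by 0.27 (SE 0.0738, limma adjusted p = 0.0201), with means of 5.96 in the knockout and 6.24 in the wild type. That call ended without knockout library 1 (adjusted p = 0.0736 in limma) or wild-type library 2 (0.0680). The authors' deposited log2 fold change for Cd59a is -0.84.

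The remaining receptors moved in opposite directions. Itgam, the alpha chain of complement receptor CR3 (chromosome 7, 128062640 to 128118491), fell with values of 7.80, 7.91 and 8.25 in knockout libraries against 9.08, 9.05 and 9.07 in wild-type libraries. The groups were apart (difference -1.08, SE 0.107, limma adjusted p = 0.000120). Its partner Itgb2 lay at 12.33 in the knockout and 12.44 in the wild type and did not pass (limma adjusted p = 0.184). Cd93, a C-type lectin-like protein first described as a C1q receptor (chromosome 2, 148436640 to 148443563), rose with 12.84, 12.74 and 12.75 in knockout libraries and 11.57, 11.75 and 11.58 in wild-type libraries (difference 1.15, SE 0.0609, limma adjusted p = 8.60e-06). Cr2 and Itgax did not pass.

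**Figure D3:**
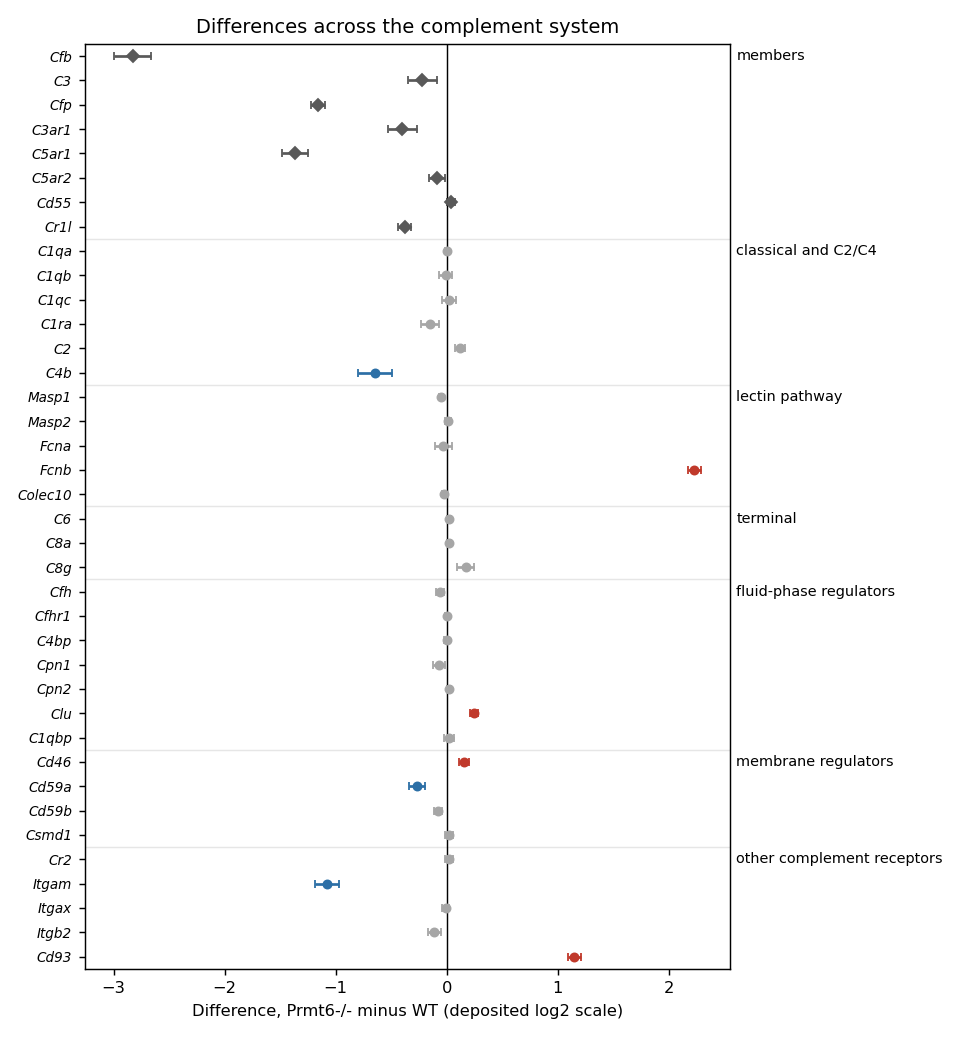
Difference, Prmt6-/- minus WT (horizontal axis, deposited log2 scale, bars are SE), for the 8 tested members (dark diamonds) and the 30 other complement genes tested (circles, red for higher and blue for lower by limma, grey for not passed), grouped by role. Cfb at -2.83 and Fcnb at 2.23 mark the ends, and most classical, terminal and fluid-phase genes lie near 0.

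Receptor signalling genes were mostly lower. Of 15 listed genes of G proteins, arrestins, receptor kinases and effectors that act downstream of chemoattractant receptors, all were tested. By limma 9 fell and 1 rose, where 18.0% of all genes tested passed as lower and 15.0% as higher. In either direction 66.7% passed against 33.0% of all genes tested, with a median difference of -0.39. This count was chosen after seeing the data, so it is a description only. Pik3r5 and Pik3cg encode the regulatory and catalytic subunits of the phosphoinositide 3-kinase gamma that G-protein beta-gamma subunits activate. Pik3cg stood at 9.44, 9.40 and 9.42 in knockout libraries and 10.60, 10.77 and 11.00 in wild-type libraries (difference -1.38, SE 0.0928, limma adjusted p = 2.52e-05).

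The groups were apart for Pik3r5 as well, at 8.98, 9.02 and 8.99 in knockout libraries and 9.96, 9.93 and 10.10 in wild-type libraries (SE of the difference 0.0636, limma adjusted p = 1.83e-05), or 49.8% of the wild-type level. Plcb2, a phospholipase C driven by the same subunits, fell by 1.03 (SE 0.124, limma adjusted p = 0.000325). Grk2, a kinase that desensitizes receptors and is named Adrbk1 in the table, fell by 0.63 (SE 0.0695, limma adjusted p = 0.000201). The gene that rose was Grk5, a related kinase named here after its values were seen (difference 0.16, limma adjusted p = 0.0358). The Grk5 call ended without the low-value filter, with the replicate block, with intensity-dependent centring and without any one of 5 of the 6 libraries, and the authors' deposited table gives an adjusted p of 0.0924. These genes serve many receptors other than those of C3a and C5a.

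Proteases able to cleave complement proteins moved both ways. Of 13 listed, 11 were tested, 2 rose and 3 fell, so 45.5% passed against 33.0% of all genes tested. The protease count, too, was chosen after seeing the data and is a description only. Neutrophil elastase (Elane) read 18.01, 18.04 and 17.98 in knockout libraries and 16.42, 16.54 and 16.72 in wild-type libraries. The difference was 1.45 (SE 0.0664, limma adjusted p = 3.65e-06), or 0.812 after quantile normalization, which compresses the top of the range. The lysosomal cathepsins Ctsb, Ctsd and Ctss fell by 0.50, 0.74 and 0.84, with limma adjusted p of 6.66e-05, 7.16e-05 and 0.000783. Cathepsin G (Ctsg), the other gene that rose, was named after its values were seen and differed by 0.51 (limma adjusted p = 0.00386).

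**Figure D4:**
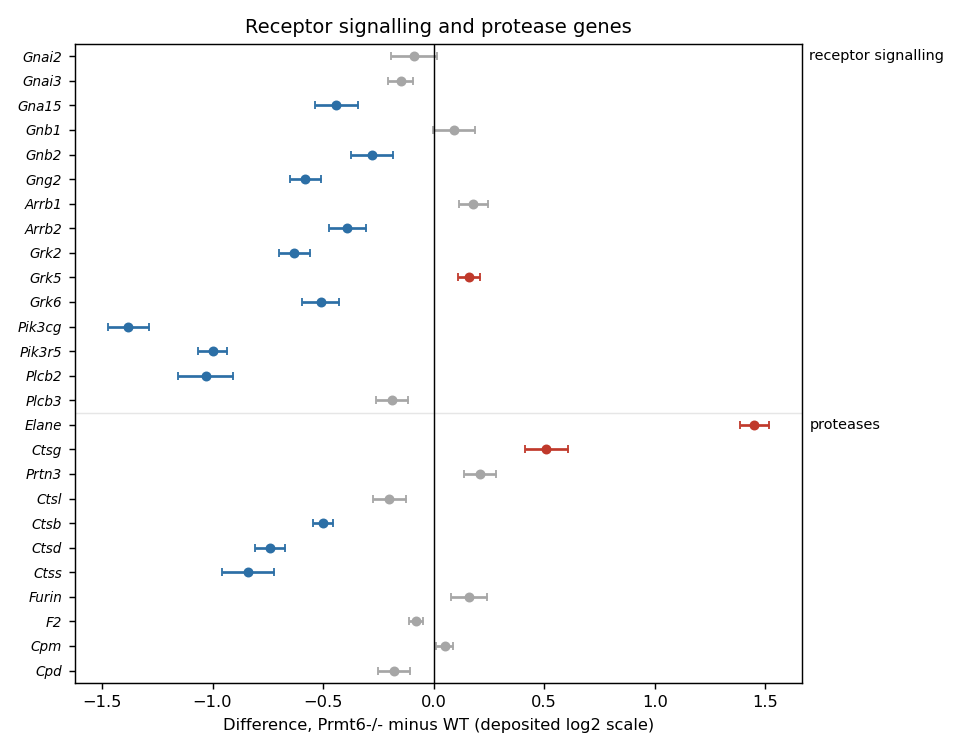
Difference, Prmt6-/- minus WT (horizontal axis, deposited log2 scale, bars are SE), for 15 receptor signalling genes and 11 proteases tested, in red for higher, blue for lower and grey for not passed by limma. Pik3cg lies at -1.38, Plcb2 at -1.03 and Elane at 1.45.

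Pooled over all members, genes beside them on the chromosome passed about as often as genes at large. The 3 nearest tested protein-coding genes on each side of each member, leaving out genes of the complement lists, gave 45 genes, with Cr1l having them on one side alone near the chromosome end and C5ar1 and C5ar2 sharing theirs. By limma 4 rose and 11 fell, 33.3% against 33.0% of all genes tested, and without knockout library 2 the number that fell was 7. The neighbours of Cfb that passed, all as lower, were Skiv2l, Nelfe, Gm20547 and Ehmt2, while Dxo and Zbtb12 did not pass. Skiv2l was named after its values were seen (difference -0.25, SE 0.0530, limma adjusted p = 0.00655). Around Cfb, Nelfe, a subunit of the negative elongation factor that lies 0.002 kb away, fell by 0.47 (SE 0.0581, limma adjusted p = 0.000358), with values of 10.06, 10.01 and 10.16 in the knockout and 10.52, 10.58 and 10.55 in the wild type. Ehmt2, a histone H3 lysine methyltransferase 36.0 kb from Cfb, fell by 0.49 (SE 0.0682, limma adjusted p = 0.000707). C2, the factor B relative of the classical pathway on its other side (means of 5.17 in the knockout and 5.04 in the wild type), did not pass (difference 0.12, limma adjusted p = 0.0746).

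Gm20547, a protein-coding gene model that overlaps both Cfb and C2 and was named after its values were seen, read 3.03, 3.03 and 3.03 in knockout libraries and 3.23, 3.26 and 3.19 in wild-type libraries. It fell by 0.19 (SE 0.0283, limma adjusted p = 0.00100), and the authors' deposited table gives Gm20547 a log2 fold change of -6.70, beyond the -3.33 of Cfb. The authors' counting could have split reads between it and Cfb, so the share of each model is uncertain. Beside C3, Vav1, a guanine nucleotide exchange factor of blood cells 51.0 kb away, fell by 0.49 (SE 0.0584, limma adjusted p = 0.000322). Of the 6 neighbours of Cfp, 0 passed by limma, 1 had an unadjusted p under 0.05 and 0 passed in the authors' deposited table. The 6 genes around C5ar1 and C5ar2 included 1 that passed, Inafm1, named after its values were seen (difference -0.23, limma adjusted p = 0.0256).

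**Figure D5:**
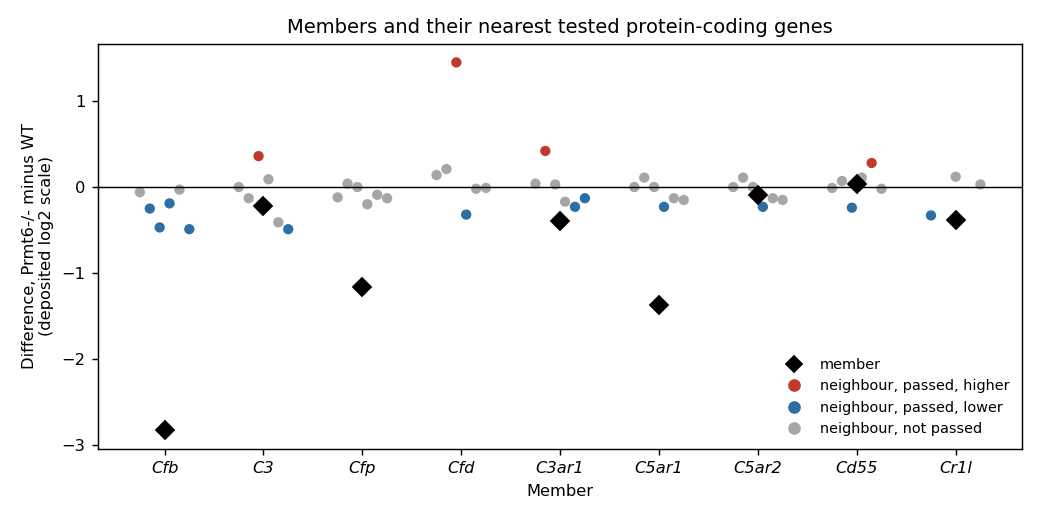
Difference, Prmt6-/- minus WT (vertical axis, deposited log2 scale), of each member (black diamonds) and of its nearest tested protein-coding genes (circles, red for higher, blue for lower and grey for not passed by limma). On this scale, which compresses low genes such as Gm20547 beside Cfb, Cfb, Cfp and C5ar1 lie below all of their neighbours shown, and Elane beside Cfd lies at 1.45.

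Markers of other cells moved in both directions. Of 12 monocyte and macrophage markers 10 were tested, 3 fell and 1 rose, 40.0% against 33.0% of all genes tested. Csf1r, the receptor of macrophage colony-stimulating factor, fell by 1.83 (limma adjusted p = 4.40e-05), Cd68 by 0.94 (0.000123) and Adgre1, the F4/80 antigen, by 0.33 (0.0122), whereas the chemokine receptor Ccr2 rose by 1.07 (2.80e-05). Adgre1 averaged 10.68 in the knockout and 11.01 in the wild type, while Marco and Fcgr1 stood at -1.49 and 0.38 in the knockout and -1.49 and 0.39 in the wild type, so markers of this list lay at both ends of the scale. The log2 of the summed linear values ranged from 14.69 to 14.78 in knockout libraries and from 14.76 to 14.93 in wild-type libraries, but the highest marker, Ly6c2 (14.48 in the knockout and 14.46 in the wild type), carries most of that sum.

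Of 11 neutrophil markers 2 rose and 2 fell, 36.4% against the same 33.0%. Lcn2 fell by 1.09, Mmp8 fell by 0.53 and Cxcr2 rose by 1.18 (limma adjusted p = 2.80e-05, 0.0251 and 9.34e-05), while the mature neutrophil gene Ly6g stood at a mean of 1.93 in both genotypes. Mmp8 did not pass in the authors' deposited table (adjusted p 0.204), and its knockout library 3 (6.06) nearly met wild-type library 2 (6.07). The log2 of the sum ranged from 11.26 to 12.01 in knockout libraries and from 11.68 to 11.82 in wild-type libraries. Knockout library 3 stood apart here, with the granule gene Camp, which rose, at 8.37, 8.46 and 9.61 in knockout libraries 1 to 3 and 7.99, 7.93 and 7.62 in wild-type libraries.

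Single markers of further lists moved as well. The B cell receptor chain gene Cd79b fell by 1.15 (limma adjusted p = 6.52e-05), and the dendritic cell genes Xcr1 and Zbtb46 fell by 0.35 (0.00389) and 0.25 (0.0456). In the authors' deposited table the log2 fold changes are -1.14 for Xcr1 and -0.71 for Zbtb46, and Zbtb46 did not pass there (adjusted p 0.0742). Of 6 mast cell and basophil markers 4 were tested and 3 passed, 75.0% against 33.0% of all genes tested. Cpa3 was lower by a difference of -0.60 (limma adjusted p = 0.0183), and Ms4a2 and Gata2 were higher by 0.17 (0.0203) and 0.33 (0.0441). Ms4a2 is low, with means of 4.03 in the knockout and 3.86 in the wild type, where the deposited scale compresses changes. The authors' deposited log2 fold changes are 1.88 for Ms4a2, 0.39 for Gata2 and -0.81 for Cpa3. Mcpt8 did not pass, and Prss34 and Fcer1a, at 0.18 and -1.49 in the knockout, did not reach the filter. The T cell gene Cd3d averaged 5.58 in the knockout and 5.14 in the wild type and rose (limma adjusted p = 0.00120), while Cd3e stood at the bottom of the scale, at -1.97 in both genotypes. The erythroid factor gene Klf1 rose by 0.22 (limma adjusted p = 0.0171) and the endothelial and leucocyte gene Pecam1 fell by 0.41 (0.0180). For Cd3d and Klf1, too, the deposited scale compresses the change, and the authors' deposited log2 fold changes are 2.01 and 1.76. Of 4 megakaryocyte and platelet markers tested 0 passed by limma, 0 at an unadjusted p under 0.05 and 0 in the authors' deposited table. The part of such cell differences in the values of the complement genes was not tested.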

How the data were processed

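Poly(A) RNA of sorted cells was made into libraries with 15 PCR cycles, per the labels' protocols. Per the submitters' processing notes, reads went through Trim Galore, kallisto and HOMER on build GRCm38, and the file header names HOMER's differential expression command on read counts. The deposited log2 values were normalized between samples by the authors and run from -1.97 to 18. The authors' deposited table also holds log2 fold changes and p-values from an unnamed test; all 4798 of its genes with an adjusted p under 0.05 had the sign of knockout minus wild type. One row (0.00333%) named no gene and was left out. Annotation was GENCODE for GRCm38.

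The main test was limma 3.58.1 under R 4.3.3 (mean-variance trend, two-sided, 3 against 3 libraries) on the deposited log2 values, without a pseudocount. Leaving out each library, quantile normalization, no filter, no trend and a replicate block were tried. In simulated data of 15454 genes, the test found 40%, 80% and 90% of 50 genes each planted at a log2 difference of 0.25, 0.5 and 1, and 6 of 15254 unchanged genes were called. The differences were planted on the deposited scale, at any level and with independent normal noise. Low genes, whose changes that scale compresses, would thus be found less often than these shares at the same true fold change. Members, lists and motifs were chosen with earlier results of these data known. Genes named are the members, every other complement gene that passed, and up to 4 signalling, protease or neighbouring genes and 3 markers per list by smallest adjusted p, plus markers at or near 0. All other genes given with values (among them Kit, Cd34, Cd47, Mpo, Adgre1, Ly6c2, Camp, Itgb2, C2, C6, C8a, C8g, Hc, the C1q chains, Prtn3, Ctsg, Grk5, Gm20547 and Inafm1) were named after their values were seen. With no counts, depth and its precision are unknown.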

Additional observations from a re-analysis of the deposited data

How the results depend on the processing

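Of the counts compared between settings, all stayed within 1.5 times of the value reported except the following. After quantile normalization 7 neighbouring genes rose, 8 protease genes passed and 4 of these rose. The number of neighbouring genes that fell was 7 to 10 when 1 library was left out. The number of receptor signalling genes that rose was 0 without the low-value filter, with the replicate block, in the authors' deposited table and with intensity-dependent centring, 2 in limma without trend, and 0 to 1 when 1 library was left out. All genes called numbered 5102, of which 2324 were higher and 2778 lower, and after quantile normalization 2827 were higher and 2378 lower. The replicate block called 5074 genes, 7 other complement genes and 4 members; every library correlated best with its own number, but only 1 of 3 such pairs exceeded 0.1 (0.0948, 0.0727 and 0.172), so the numbers are not taken to pair the samples. Intensity-dependent centring and the signalling and protease counts were chosen after seeing the data. Differences of genes with a low mean, such as Cd55 and Clu, are limited by the compression of the deposited scale.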
